A study of Mus musculus with 8 samples.

Results

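Amino acid transporter genes of 7 solute carrier families were described in gastrocnemius, a calf muscle, of arthritic mice with and without dipyridamole. The members were every gene symbol made of Slc, a family number of 1, 3, 6, 7, 36, 38 or 43, the letter a and a further number. This gave 61 genes of the 21833 symbols in the count tables, and 33 of them passed the filter on low counts. The 7 families held 7, 2, 19, 15, 4, 11 and 3 genes, in the order of the family numbers just given, of which 4, 1, 6, 8, 3, 8 and 3 passed. The rule selects by name, so it also takes carriers in these families whose main cargo is not a standard amino acid, such as creatine, taurine, noradrenaline or nucleobases.

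All 8 mice were male C57BL/6J recipients aged 12 weeks that had 100 µL of pooled K/BxN serum in the peritoneum on day 0 and day 2, which passes on an antibody-driven arthritis. The RA mice (n = 4) had serum alone, and the RA+Dipy mice (n = 4) were given dipyridamole as well, daily from day 0, at 25 mg/kg. Muscle was collected on day 16, and polyadenylated RNA was sequenced from each mouse. Dipyridamole blocks the uptake of adenosine into cells and inhibits several phosphodiesterases. The genotype label reads K/BxN, although the design text describes serum recipients, and the labels and the design text name different library kits. The protocol field names dipyridamole for all 8 samples, but the treatment label stands on the 4 RA+Dipy samples only, and the design text gives the same split. Muscle of non-arthritic mice was not analysed here, and whether the RA mice had a vehicle is not given in those texts.

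Amino acids cross the membranes of muscle fibres through carriers with overlapping cargoes. Sodium-coupled carriers, such as those of the SLC38 family, concentrate small neutral amino acids and glutamine in the cell. Exchangers of the SLC7 family then trade these for leucine and other large amino acids, and most of them need a heavy chain of the SLC3 family to reach the membrane. Proton-coupled carriers of the SLC36 family and some SLC38 members sit on lysosomes, where amino acids are sensed by the growth kinase complex mTORC1. Shortage of amino acids raises several of these transcripts through the transcription factor ATF4, and muscle wasting is a setting in which uptake and release of amino acids are often studied.

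Slc7a11 encodes the cystine and glutamate exchanger xCT, and Slc3a2 encodes CD98hc, the heavy chain that carries it to the membrane. The 250 bases before the start site of each are shown because of how unevenly and how evenly the 2 transcripts were spread over libraries. The coefficient of variation of Slc7a11 was the highest of the measured genes in both groups, at 128% in RA and 131% in RA+Dipy, whereas that of Slc3a2 was 12.0% and 13.1%. Both windows are from RefSeq (GRCm38.p6) and lie on the minus strand, at chr3:50443614-50443863 for Slc7a11 and chr19:8713898-8714147 for Slc3a2. Capitals mark TGATGCAA or its reverse complement TTGCATCA, the core of the element that ATF4 is known to bind with C/EBP proteins.
Slc7a11: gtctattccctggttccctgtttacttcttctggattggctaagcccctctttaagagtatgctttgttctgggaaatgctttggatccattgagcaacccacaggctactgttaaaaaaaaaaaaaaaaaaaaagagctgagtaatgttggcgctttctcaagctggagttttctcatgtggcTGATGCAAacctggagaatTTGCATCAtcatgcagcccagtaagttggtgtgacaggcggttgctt
Slc3a2: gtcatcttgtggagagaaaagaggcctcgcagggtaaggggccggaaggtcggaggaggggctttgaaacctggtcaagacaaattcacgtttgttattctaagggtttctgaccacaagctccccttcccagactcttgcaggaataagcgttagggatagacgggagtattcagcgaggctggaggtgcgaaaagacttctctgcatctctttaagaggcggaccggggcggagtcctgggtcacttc
The Slc7a11 window held 2 matches on opposite strands, which began 66 and 47 bases before the start site, and the Slc3a2 window held 0. In GENCODE vM21 the Slc3a2 gene spans 8706882 to 8723369, so its RefSeq window lies within the gene. Starts further upstream were not examined, and the part of these matches in the spread of either transcript was not tested. Of 32851 promoter windows in the RefSeq table (250 bases before and 50 after a start site), 0.895% held TGATGCAA on either strand. With TGATGNAA, which includes those matches, the share was 3.97%. The table held 43 of the 61 transporter genes, and TGATGCAA stood in a window of 3 of them, Slc7a11, Slc7a7 and Slc1a4. TGATGNAA added Slc6a21, which was not measured here. Over all 27025 genes of the RefSeq table, 1.03% held TGATGCAA in a window and 4.51% held TGATGNAA. These are matches of letters and not sites of binding.

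Library totals ran from 16.4 to 50.6 M (mega) counts. RA replicate 4 and RA+Dipy replicate 1 stood apart over the 12755 genes tested: 39.5% and 19.9% of genes lay more than 2-fold from their 8-library median in these libraries, against 0.541% to 3.03% in the other 6. The muscle markers Myh4, the fast myosin heavy chain, and Acta1, skeletal actin, were high throughout. They ran from 29850 to 52020 CPM (the read count over the TMM-adjusted library total in M) and from 19060 to 41960 CPM. Both were lowest in the 2 libraries that stood apart, as were Atp2a1, Myh1 and Myh2. Atp2a1 was at 8217 and 2117 CPM there (RA library first), against 17760 to 21920 CPM elsewhere. Myh2 was at 203 and 219 CPM, against 1046 to 1817 CPM. Pvalb, Tnni2, Ttn and Ckm were instead highest there, with Pvalb at 64430 and 46680 CPM against 11540 to 21470 CPM. The part of these shifts in the transporter values was not tested. The summed level of 10 adipocyte markers was 1516 CPM in RA+Dipy replicate 4, 936 CPM in RA replicate 4 and 838 CPM in RA+Dipy replicate 1, and 330 to 484 CPM in the other 5 libraries. Markers of macrophages, fibroblasts, Schwann cells and adipocytes leaned to one side between the groups. Even so, 0 passed the adjusted threshold of edgeR, and their part in the transporter values was not tested. Of 14 macrophage markers 11 were higher in RA+Dipy (median log2 fold change 0.62), 5 of them with an unadjusted p under 0.05, and their sums were 145 to 408 CPM in RA and 200 to 400 CPM in RA+Dipy. Of 10 fibroblast markers 8 were higher (median 0.52), 4 of them with an unadjusted p under 0.05, with sums of 1558 to 3016 CPM in RA and 2026 to 3856 CPM in RA+Dipy. Of 10 tested Schwann cell and nerve markers 9 were lower (median −0.72), 3 of them with an unadjusted p under 0.05, with sums of 248 to 573 CPM in RA and 177 to 289 CPM in RA+Dipy. Of the adipocyte markers 8 were higher (median 0.99), 3 of them with an unadjusted p under 0.05. Endothelial markers (6 higher and 4 lower, median 0.02), satellite cell markers (3 and 4, median −0.10) and T cell markers (1 and 1) were more even. Erythroid markers had 4 higher and 2 lower (median 0.30), and the 2 tested neutrophil markers were higher. These further lists held 0 genes with an unadjusted p under 0.05 by edgeR. Over all genes tested, 1.68% were higher and 2.15% lower at that p. In bulk muscle, a change in the number of cells of a type and a change in the RNA of each cell cannot be told apart.

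**Figure D1:**
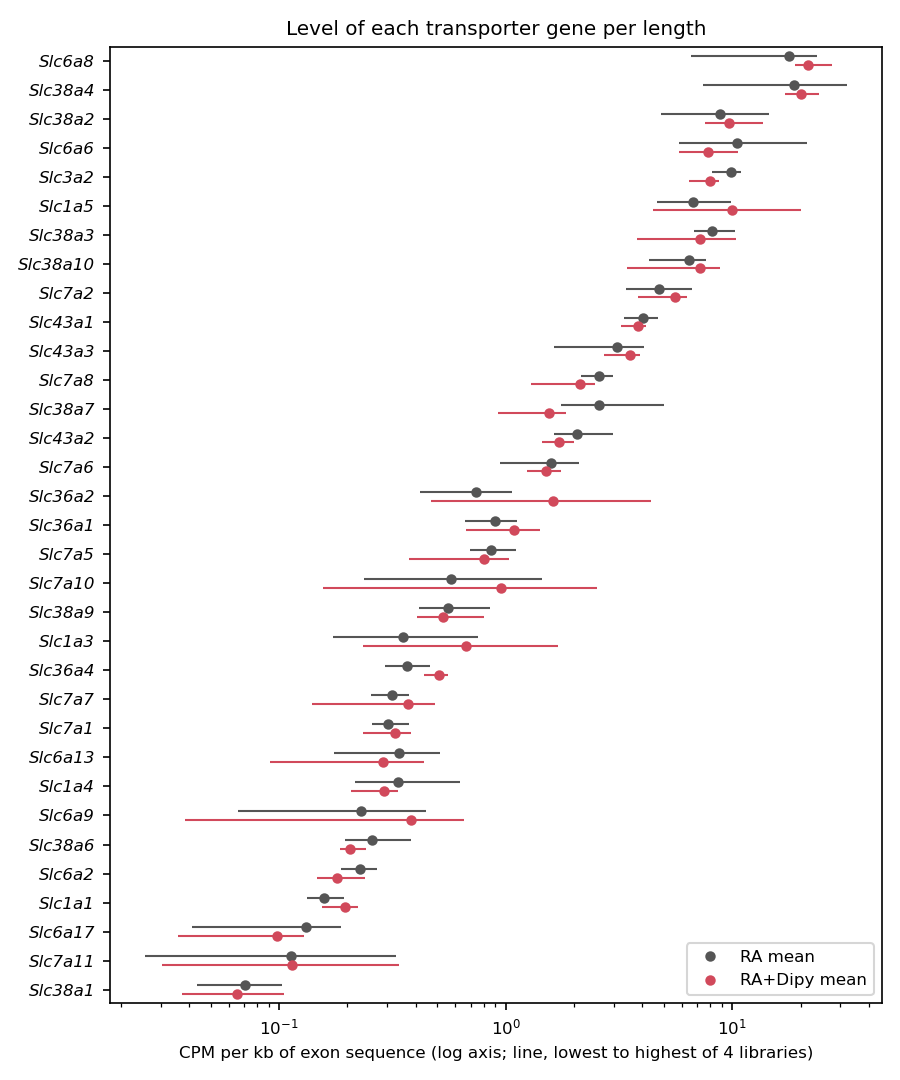
Level of each of the 33 measured transporter genes as CPM per kb of exon sequence on a log axis, with the group mean as a point and the lowest to highest of 4 libraries as a line. Slc6a8 and Slc38a4 lead in both groups, and the lines of RA and RA+Dipy overlap for every gene.

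Per exon length, the leading transcript was Slc6a8, the creatine carrier, at 17.8 ± 7.75 CPM per kb in RA and 21.6 ± 4.02 in RA+Dipy (mean ± SD of 4 libraries per group). Close to it was Slc38a4, a carrier of small neutral and cationic amino acids, at 18.7 ± 10.2 and 20.1 ± 3.01 CPM per kb, and the 2 genes did not differ beyond this spread. A second tier with group means of 6.42 to 10.5 CPM per kb held Slc38a2, Slc6a6, Slc3a2, Slc1a5, Slc38a3 and Slc38a10. The leucine carrier Slc7a5 was far lower, at 0.864 ± 0.183 CPM per kb in RA and 0.801 ± 0.304 in RA+Dipy, and Slc7a11 and Slc38a1 closed the order at means over all libraries of 0.113 and 0.0679 CPM per kb. The plot of levels per length shows the full order.

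Between RA+Dipy and RA muscle, 0 of the 33 measured transporter genes passed an adjusted p of 0.05 by the quasi-likelihood test of edgeR, and 0 had an unadjusted p under 0.05. The shares over all 12755 genes tested were 0.0% and 3.83% (1.68% higher and 2.15% lower in RA+Dipy). DESeq2 and limma-voom also called 0 transporter genes. By these tests 0 transporter genes had an unadjusted p under 0.05, against 5.8% and 2.97% of all genes. With library weights that give less say to the libraries that stood apart, limma-voom again called 0, and 8 transporter genes (24.2%) had an unadjusted p under 0.05, against 28.5% of all genes. Of the 33 genes, 17 were higher and 16 lower in RA+Dipy. Their median log2 fold change (RA+Dipy over RA) was 0.065, beside 0.02 over all genes tested. The median size of the log2 fold change regardless of sign was 0.26, beside 0.27 over all genes. The values of the 2 groups overlapped for each of the 33 genes, whereas they did not overlap for 2.72% of all genes tested (1.46% higher and 1.26% lower in RA+Dipy). Adjusted p-values of the 33 genes ran from 0.882 to 0.988, and such values do not show that the groups were alike.

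**Figure D2:**
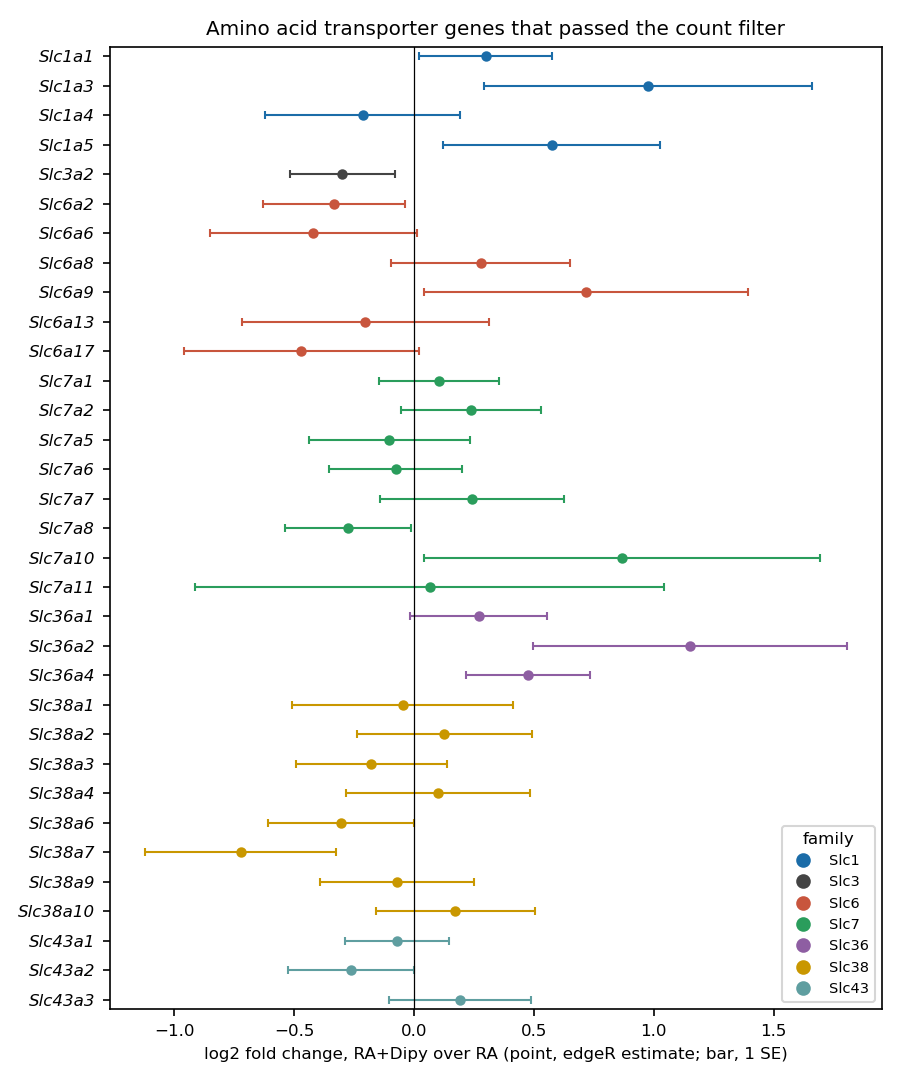
Log2 fold change (RA+Dipy over RA, edgeR) of the 33 measured transporter genes by family, with bars of 1 SE. Estimates run from −0.72 (Slc38a7) to 1.15 (Slc36a2), and the 5 largest positive ones belong to Slc36a2, Slc1a3, Slc7a10, Slc6a9 and Slc1a5.

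The 61 members together, measured or not, summed to 665 ± 79.0 CPM in RA and 688 ± 53.4 CPM in RA+Dipy (mean ± SD of 4 libraries per group). The SLC38 family was the largest part of this sum, at 266 ± 74.8 and 274 ± 22.9 CPM, followed by SLC6 at 189 ± 27.7 and 186 ± 14.3 CPM. The SLC1 sum was 33.7 ± 11.4 and 50.3 ± 34.8 CPM, and the SLC36 sum 9.88 ± 1.28 and 14.7 ± 7.61 CPM. In both of these families RA+Dipy replicate 4 was highest, at 102 and 25.9 CPM, and it alone lay above every RA library in the SLC1 family.

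The exchangers for large neutral amino acids and their heavy chain came first. Slc3a2 stood at 38.4, 28.7, 35.7 and 36 CPM in RA replicates 1 to 4 and at 22.8, 30.7, 29.1 and 30.3 CPM in RA+Dipy replicates 1 to 4. RA replicate 2 lay within the RA+Dipy range, and RA+Dipy replicate 1 was the lowest of all. Its log2 fold change was −0.30 (SE 0.22, unadjusted p = 0.200), and it kept its sign in each of 19 alternative fits.

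Slc7a5, the light chain LAT1 that imports leucine, stood at 3.35, 4.09, 2.58 and 2.79 CPM in RA and 1.39, 3.69, 3.85 and 2.96 CPM in RA+Dipy. The groups overlapped almost entirely (log2 fold change −0.10, SE 0.34), and RA+Dipy replicate 1 was again the lowest. Slc7a8, the light chain LAT2 with a broader choice of neutral amino acids, stood at 14.9, 12.7, 10.7 and 13.4 CPM in RA and 6.47, 11.4, 12.4 and 12.4 CPM in RA+Dipy (−0.28, SE 0.26). Per exon length its mean over all libraries was above that of LAT1 (2.36 against 0.833 CPM per kb). Slc7a6, the light chain y+LAT2 that exchanges arginine and glutamine, stood at 7.29, 9.58, 7.73 and 4.31 CPM in RA and 7.33, 8.05, 5.66 and 6.52 CPM in RA+Dipy (−0.08, SE 0.28). Its RA values enclosed all 4 RA+Dipy values. Slc7a7, the related y+LAT1, which macrophages are known to express, was at 0.845 to 1.25 CPM in RA and 0.462 to 1.62 CPM in RA+Dipy (0.24, SE 0.38).

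Per exon length, the 6 measured light chains that pair with the Slc3a2 product (Slc7a5, Slc7a6, Slc7a7, Slc7a8, Slc7a10 and Slc7a11) together reached 0.622 ± 0.117 of the Slc3a2 level in RA and 0.727 ± 0.120 in RA+Dipy (mean ± SD of 4 libraries per group). The lowest value was 0.514 in RA replicate 3 and the highest 0.892 in RA+Dipy replicate 4. The heavy chain transcript was therefore the more abundant side in all 8 libraries.

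Slc7a11 itself split the libraries without regard to group. It stood at 0.768, 0.356, 0.586 and 4.56 CPM in RA and at 4.69, 0.775, 0.423 and 0.440 CPM in RA+Dipy. RA replicate 4 and RA+Dipy replicate 1 were high, and these are the libraries that stood apart over all genes. Its log2 fold change was 0.065 (SE 0.98), with a range from −1.38 without RA+Dipy replicate 1 to 1.38 without RA replicate 4, and −0.086 without both. In those 2 libraries the summed haemoglobin and other erythroid markers were also highest, at 1546 and 801 CPM against 150 to 276 CPM elsewhere, and the part of either in Slc7a11 was not tested. Alas2, which makes haem in young red cells, was lowest there, at 0.169 and 0.594 CPM against 2.38 to 4.21 CPM elsewhere.

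The cationic amino acid carriers import arginine and lysine and need no heavy chain. Slc7a2, or CAT2, stood at 33.2, 60.7, 48.8 and 31.1 CPM in RA and 55.5, 34.9, 57.5 and 57.1 CPM in RA+Dipy. Of the RA+Dipy libraries 3 lay together and replicate 2 was low, so the groups overlapped (log2 fold change 0.24, SE 0.29). Slc7a1, or CAT1, the form found in most tissues, was lower per exon length (0.314 against 5.18 CPM per kb), and stood at 3.43, 3.31, 2.97 and 4.31 CPM in RA and 2.71, 4.39, 3.89 and 3.96 CPM in RA+Dipy (0.10, SE 0.25).

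**Figure D3:**
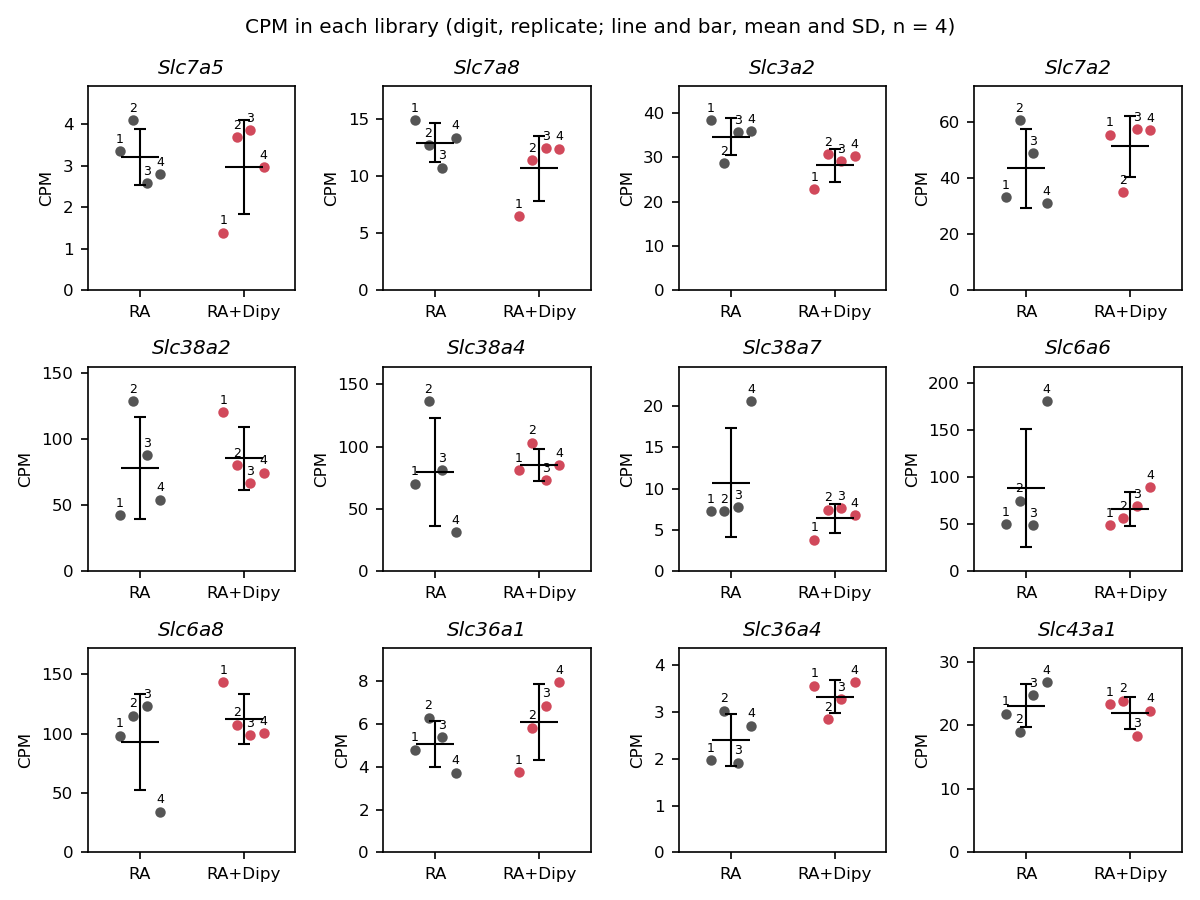
CPM of 12 transporter genes in each of the 8 libraries, with digits giving the replicate, the horizontal line the mean and the bar the SD (n = 4 per group). The replicates of the groups interleave, and single libraries such as RA replicate 4 for Slc38a7 and Slc6a6 lie far from the rest of their group.

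Of the 8 measured SLC38 genes, 3 were higher and 5 lower in RA+Dipy (median −0.059 on the log2 scale). Slc38a2, the sodium-coupled carrier SNAT2 that is known to respond to amino acid shortage, stood at 42.6, 129, 87.5 and 54.1 CPM in RA and 120, 80.2, 66.8 and 74.5 CPM in RA+Dipy. RA held both the lowest and the highest library (log2 fold change 0.13, SE 0.37). Slc38a4, or SNAT4, stood at 70.2, 136, 80.9 and 31.6 CPM in RA and 81.0, 103, 72.9 and 84.9 CPM in RA+Dipy (0.10, SE 0.38). Its RA values enclosed the RA+Dipy values, with replicate 2 at the top and replicate 4 at the bottom. Slc38a1, or SNAT1, was scarce at 0.768, 0.748, 1.56 and 1.77 CPM in RA and 0.660, 1.40, 1.81 and 0.640 CPM in RA+Dipy (−0.05, SE 0.46).

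Slc38a7, which encodes the lysosomal glutamine exporter SNAT7, had the lowest estimate of all 33 genes, at −0.72 (SE 0.40, unadjusted p = 0.0997, adjusted p = 0.882). It stood at 7.27, 7.26, 7.77 and 20.6 CPM in RA and 3.83, 7.46, 7.62 and 6.80 CPM in RA+Dipy. The estimate rested on the 2 libraries that stood apart, RA replicate 4 at the top and RA+Dipy replicate 1 at the bottom, and was −0.02 without them. The gene lies on chromosome 8 at 95835920 to 95853539 (GRCm38). Slc38a9, the lysosomal arginine sensor that signals to mTORC1, stood at 8.57, 7.55, 6.95 and 14.3 CPM in RA and 13.4, 6.76, 7.58 and 7.76 CPM in RA+Dipy (−0.07, SE 0.32), high in the same 2 libraries.

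The other SLC38 genes also overlapped between groups. Slc38a3, the glutamine carrier SNAT3, ran from 35.8 to 54.1 CPM in RA and from 20.1 to 54.5 CPM in RA+Dipy (log2 fold change −0.18, SE 0.31). Slc38a10 ran from 27.5 to 48.9 CPM in RA, and in RA+Dipy it was at 22.0 CPM in replicate 1 and 52.4 to 56.3 CPM in the other 3 libraries (0.17, SE 0.33). Slc38a6 ran from 1.52 to 2.96 CPM in RA and from 1.44 to 1.89 CPM in RA+Dipy (−0.30, SE 0.30).

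All 3 measured genes of the SLC36 family had positive estimates. Slc36a4 had the smallest p of the 33 genes (0.0961, adjusted p = 0.882; log2 fold change 0.48, SE 0.26). It stood at 1.97, 3.03, 1.91 and 2.71 CPM in RA and 3.56, 2.84, 3.27 and 3.64 CPM in RA+Dipy. RA replicate 2 exceeded RA+Dipy replicate 2, and the other RA libraries lay below all RA+Dipy libraries. Leaving out single libraries gave 0.37 to 0.61, and without RA replicate 4 and RA+Dipy replicate 1 it was 0.51. The gene lies on chromosome 9 at 15709738 to 15743361. Slc36a1, or PAT1 of the lysosome membrane, stood at 4.81, 6.30, 5.39 and 3.72 CPM in RA and 3.76, 5.83, 6.85 and 7.96 CPM in RA+Dipy (0.27, SE 0.29).

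Slc36a2, or PAT2, a carrier of glycine, alanine and proline known as a surface protein of brown and beige fat cells, had the highest estimate, at 1.15 (SE 0.65, unadjusted p = 0.108, adjusted p = 0.882). It stood at 2.502, 2.31, 1.37 and 3.47 CPM in RA and 1.52, 2.55, 2.77 and 14.3 CPM in RA+Dipy. RA+Dipy replicate 4 was 4.12 times the next library, and the other 7 libraries interleaved. Without it the estimate was −0.06.

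RA+Dipy replicate 4 was also the highest library for Slc1a3, Slc1a5, Slc7a10 and Slc6a9, the genes with the next largest positive estimates. Slc1a3, the glutamate carrier EAAT1 best known from glia, stood at 1.48, 2.14, 1.95 and 6.42 CPM in RA and 2.77, 1.99, 3.502 and 14.5 CPM in RA+Dipy (log2 fold change 0.98, SE 0.68). Slc1a5, the glutamine exchanger ASCT2, stood at 30.5, 19.4, 20.97 and 41.0 CPM in RA and 18.6, 29.9, 33.6 and 84.1 CPM in RA+Dipy (0.57, SE 0.45). Slc7a10, the small neutral amino acid exchanger Asc-1 known as a marker of white fat cells, stood at 0.709, 0.498, 0.586 and 3.04 CPM in RA and 0.330, 1.48, 0.962 and 5.32 CPM in RA+Dipy (0.87, SE 0.82). The second highest library of Slc1a3, Slc1a5 and Slc7a10 was RA replicate 4, whereas for Slc6a9, whose values follow with its family, RA replicate 4 was the second lowest.

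Of the 10 adipocyte markers, 7 were also highest in RA+Dipy replicate 4. Lipe and Retn were highest in RA replicate 4, at 146 and 67.6 CPM against 74.2 and 45.2 CPM in RA+Dipy replicate 4, and Fabp4 was highest in RA+Dipy replicate 1, at 554 against 526 CPM. Adipoq, the fat cell hormone adiponectin, was at 10.4 to 24 CPM in RA and at 20.3, 19.9, 22.9 and 101 CPM in RA+Dipy. Plin1, which coats lipid droplets, was at 7.12 to 14.1 CPM in RA and at 4.09, 13.8, 11.5 and 74.6 CPM in RA+Dipy. All 10 adipocyte markers were detected, with sums of 330 to 936 CPM in RA and 443 to 1516 CPM in RA+Dipy, and their part in these transporter values was not tested. Without RA+Dipy replicate 4 the log2 fold changes were −0.077 for Slc1a3, −0.027 for Slc1a5 and −0.25 for Slc7a10. Without that library, RA replicate 4 and RA+Dipy replicate 1 they were 0.58, 0.43 and 1.01, and that of Slc36a2 was 0.35. The edgeR adjusted p was 0.931 for each, and Slc7a10 alone of the 4 had an unadjusted p under 0.05 (0.0223). In that fit 5.56% of the transporter genes and 4.71% of all genes had such a p. Without RA replicate 4 and RA+Dipy replicate 1 only, the log2 fold changes of the 4 genes were 1.87, 1.07, 2.09 and 1.65. These 4 genes and Slc6a9 had an unadjusted p under 0.05, 15.2% of the transporter genes against 11.4% of all genes in that fit.

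**Figure D4:**
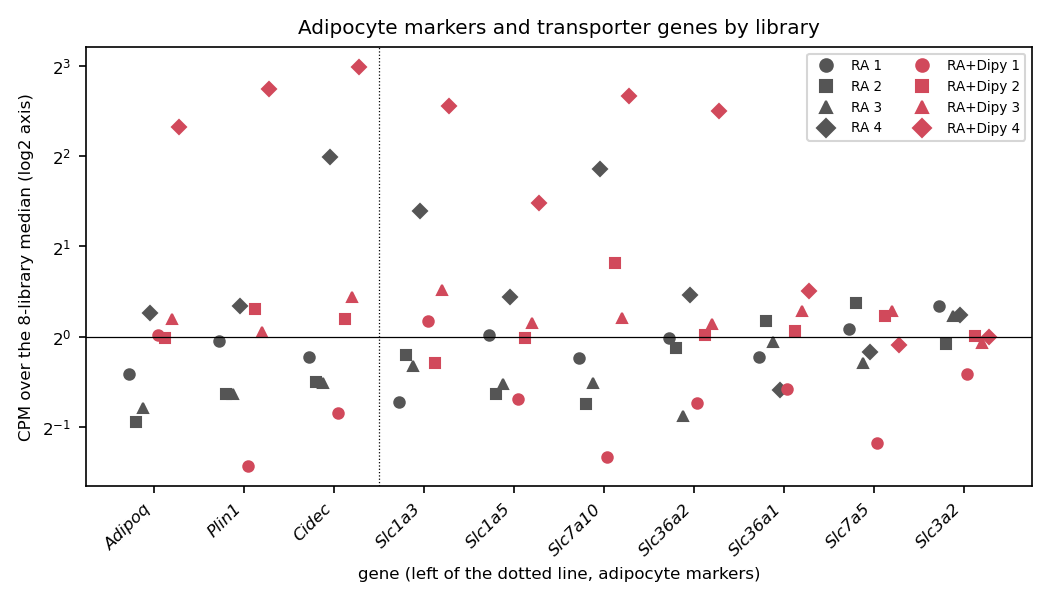
CPM of 3 adipocyte markers and 7 transporter genes in each library, divided by the 8-library median of the gene, on a log2 axis. RA+Dipy replicate 4 is the highest point for these 3 markers, which are among the 7 of 10 adipocyte markers highest there. It is also the highest point for Slc1a3, Slc1a5, Slc7a10, Slc36a2 and, at 1.16 times the next library, Slc36a1, but not for Slc7a5 and Slc3a2.

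The other SLC1 genes were low. Slc1a1, the glutamate carrier EAAT3, ran from 1.10 to 1.60 CPM in RA and from 1.28 to 1.85 CPM in RA+Dipy (log2 fold change 0.30, SE 0.28). Slc1a4, the alanine, serine and cysteine carrier ASCT1, reached 2.46 CPM in RA replicate 3, above the 0.812 to 1.32 CPM of the remaining 7 libraries (−0.21, SE 0.41). Counting took no account of strand, and 31.9% of the exon bases of Slc1a1, 38.6% of those of Slc6a9 and 17.9% of those of Slc7a10 overlap a gene on the opposite strand in GENCODE vM21, so part of their reads could come from the partner.

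In the SLC6 family, the abundant members carry muscle osmolytes and energy metabolites rather than protein amino acids. Slc6a6, the taurine carrier, stood at 49.9, 75.2, 49.1 and 181 CPM in RA and 49.2, 56.9, 69.3 and 89.7 CPM in RA+Dipy. RA replicate 4 was the highest, at 2.02 times the next library. The log2 fold change was −0.42 (SE 0.43) and became 0.21 without that library. Slc6a8, the creatine carrier, stood at 98.5, 115, 123 and 34.3 CPM in RA and 144, 108, 98.8 and 101 CPM in RA+Dipy. Here RA replicate 4 was the lowest, and the log2 fold change of 0.28 (SE 0.37) became 0.02 without it.

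Slc6a9, the glycine carrier GlyT1, stood at 0.886, 2.28, 1.21 and 0.338 CPM in RA and 0.198, 2.29, 2.00 and 3.36 CPM in RA+Dipy (log2 fold change 0.72, SE 0.68). The lowest values were those of RA replicate 4 and RA+Dipy replicate 1. Slc6a2, the noradrenaline carrier of sympathetic nerve endings, had the smallest p of its family (0.283) and stood at 1.54, 1.71, 1.29 and 1.18 CPM in RA and 0.924, 0.960, 1.501 and 1.16 CPM in RA+Dipy (−0.34, SE 0.30). Slc6a13, a carrier of GABA and taurine, ran from 0.508 to 1.497 CPM in RA and from 0.264 to 1.27 CPM in RA+Dipy (−0.20, SE 0.51). Slc6a17, a carrier of synaptic vesicles, ran from 0.423 to 1.92 CPM in RA and from 0.369 to 1.32 CPM in RA+Dipy (−0.47, SE 0.49).

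The SLC43 family carries large neutral amino acids by facilitated diffusion, and all 3 members were measured. Slc43a1, or LAT3, had the smallest SE of the 33 genes and stood at 21.8, 19.0, 24.7 and 26.8 CPM in RA and 23.4, 23.9, 18.4 and 22.3 CPM in RA+Dipy (log2 fold change −0.07, SE 0.22). Slc43a2, or LAT4, stood at 18.1, 16.4, 18.2 and 29.9 CPM in RA and 14.7, 19.5, 20.0 and 14.5 CPM in RA+Dipy (−0.26, SE 0.26), with RA replicate 4 the highest. Slc43a3, which carries purine nucleobases, ran from 7.27 to 18.3 CPM in RA and from 12.1 to 17.5 CPM in RA+Dipy (0.19, SE 0.30).

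**Figure D5:**
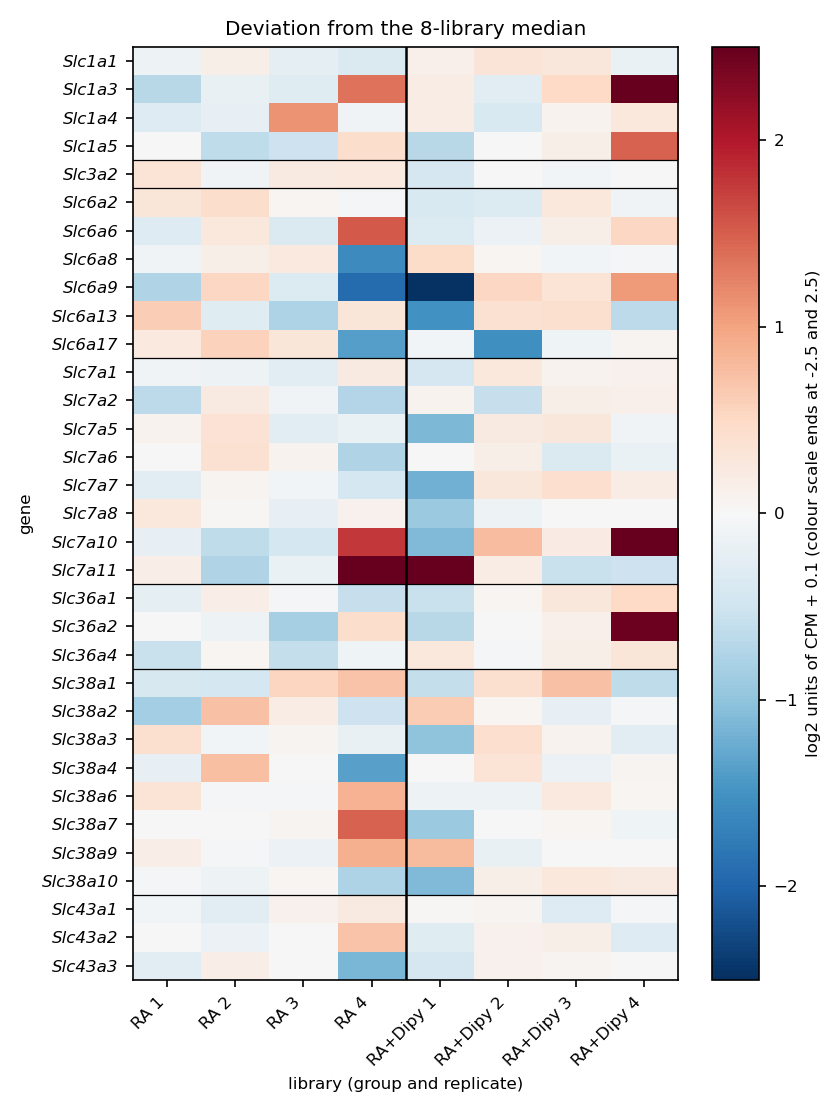
Deviation of each measured transporter gene in each library from its 8-library median, in log2 units of CPM + 0.1, with families separated by lines and RA left of the heavy line. Most strong colours fall in RA replicate 4, RA+Dipy replicate 1 and RA+Dipy replicate 4, where 10, 8 and 5 of 33 genes lie more than 2-fold from the median.

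As the map of deviations shows, the spread of these genes lay between libraries more than between groups. In RA replicate 4, 30.3% of the measured transporter genes lay more than 2-fold from their median, beside 39.5% of all genes. In RA+Dipy replicate 1 the share was 24.2%, beside 19.9% of all genes, and in RA+Dipy replicate 4 it was 15.2%, beside 3.03%. RA+Dipy replicate 1 was the lowest library for 13 of the 33 genes and the highest for 2.

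The 28 members below the filter were not measured. Slc7a9 and Slc7a12 had 0 reads in all libraries, where a count of 0 allows 0.0591 CPM in RA replicate 1 and up to 0.254 CPM in RA replicate 4, with the other libraries between (3 counts, counting error only). Slc6a5 and Slc6a14 had reads in 1 library. Slc36a3, Slc38a8, Slc6a3 and Slc6a16 had them in 2, and Slc1a7 and Slc3a1 in 3. Slc38a5, Slc6a21 and Slc7a14 had reads in 4 libraries, Slc1a6 and Slc6a11 in 5, and Slc1a2 and Slc7a15 in 6. Slc6a15, Slc6a18, Slc7a3, Slc7a4 and Slc7a13 had reads in 7 libraries. Slc38a11, Slc6a4, Slc6a7, Slc6a12 and Slc6a19 had reads in all 8, and no member of the 28 exceeded 30 reads in a library. Among these are carriers known from brain, kidney and gut, such as the dopamine carrier Slc6a3 and the intestinal and renal Slc6a19.

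Genes that act on the same amino acids gave 0 calls as well. Of 17 genes of branched-chain amino acid breakdown, 13 were higher and 4 lower in RA+Dipy (median log2 fold change 0.04), and 0 had an unadjusted p under 0.05 by edgeR. Bcat2, the muscle transaminase that starts this pathway, was at 101 ± 16.2 CPM in RA and 76.7 ± 8.63 CPM in RA+Dipy (log2 fold change −0.40, SE 0.23), and Dld, a dehydrogenase subunit, had 0.83 (SE 0.50). Of 8 tested enzymes of glutamine, glutamate and alanine metabolism, 4 were higher and 4 lower (median 0.05), with Asns, which makes asparagine, at 0.56 (SE 0.31) and the alanine transaminase Gpt at −0.46 (SE 0.26).

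Of 34 genes of amino acid sensing by mTORC1, 17 were higher and 17 lower (median −0.01). One of them had an unadjusted p under 0.05: Akt1s1, an inhibitory partner of mTORC1, at 287 ± 137 CPM in RA and 147 ± 40.8 CPM in RA+Dipy (SD of 4 libraries; log2 fold change −0.97, SE 0.37; edgeR adjusted p = 0.882). Akt1s1 was highest in RA replicate 4 (479.6 CPM) and lowest in RA+Dipy replicate 1 (97.3 CPM), the libraries that stood apart. Its remaining libraries overlapped, at 162.9 to 282.5 CPM in RA and 144.0 to 197.1 CPM in RA+Dipy. The next smallest p belonged to Nprl2, part of a complex that restrains mTORC1 (−0.54, SE 0.26). Of 21 tested genes of the response to amino acid shortage, 9 were higher and 12 lower (median −0.14). Psat1, of serine synthesis, was at 1.74 ± 0.760 and 3.63 ± 1.95 CPM (1.05, SE 0.46; edgeR adjusted p = 0.882), the single gene of this list with an unadjusted p under 0.05, and Asns came next. Atf4 itself had −0.47 (SE 0.27).

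Of 8 genes of taurine and creatine synthesis and use, 5 were higher and 3 lower (median 0.17), led by Gadl1 (0.57, SE 0.28) and Gamt, which makes creatine (−0.73, SE 0.39). Of 12 tested genes listed as amino acid carriers outside the 7 families, 5 were higher and 7 lower (median −0.10). The list included Slc7a6os (0.14, SE 0.23), which is named after Slc7a6 but does not encode a carrier. It was led by Slc15a4, a lysosomal carrier of histidine and peptides (−0.53, SE 0.25), and Slc25a38, a mitochondrial glycine carrier (−0.34, SE 0.23). Over all genes tested, 3.83% had an unadjusted p under 0.05.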

How the data were processed

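The authors deposited raw read counts per protein-coding gene symbol for each library, not normalized. Reads (single-end, 100 nt) went through fastp 0.20.0 for trimming, STAR 2.7.3a for alignment on GRCm38.p6 and HTSeq for counting without strand, per the series' design text and, for the aligner, counter and build, per the labels' processing notes. Which gene annotation they counted against is not given in these texts. Counts of the 24 symbols on more than 1 line were summed.

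Libraries were grouped by title. Genes were filtered with filterByExpr (minimum count 10), which kept 12755 genes, scaled by TMM, and tested in R 4.3.3 with edgeR 4.0.16 by quasi-likelihood (robust, group as sole term, two-sided), with Benjamini-Hochberg adjustment over all genes and a threshold of 0.05. The scripts were tested on simulated data. Alternatives used DESeq2 1.42.0, limma 3.58.1, other factors and filters, a replicate block and fits without single libraries or sets of libraries. CPM per kb used the union of GENCODE vM21 exons. The deviation map used a pseudocount of 0.1 CPM.

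All measured members are named, and 1 member below the filter is not reported here. Values in each library were given for 18 members fixed by name, and for those with the smallest p or largest fold change of each family, and for Slc7a11. From each pathway list the 2 genes with the smallest p were named, and Atf4 and Alas2 were added after their values were seen. The members and lists were chosen with earlier results of these data known. No 2 libraries of a group agreed within sampling noise (chi-square per degree of freedom at least 29.3), and p-values measure the spread between 4 mice per group.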

Additional observations from a re-analysis of the deposited data

Results flagged for a closer look

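In 12 of the 66 groups of 4 libraries (33 genes in 2 groups), 18.2%, the highest or lowest library stood far from the next. The gap, as a share of the group's range, exceeded the 95% critical value of Dixon's test. For normally distributed values chance gives this in about 1 of 20 groups. Whether these CPM were so distributed was not tested, so that rate is no yardstick for 18.2%. The genes share libraries, so the groups are not independent. The share over all genes tested was not computed, so 18.2% cannot be read as particular to the transporter genes. RA replicate 4 and RA+Dipy replicate 1 also stood apart over all genes, with 39.5% and 19.9% of them more than 2-fold from their median. RA replicate 4 accounted for 5 of them, RA+Dipy replicate 1 for 3, and RA+Dipy replicate 4 for 2.

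In RA replicate 4, Slc1a3 was at 6.42 CPM (1.48 to 2.14 in the other RA libraries), Slc38a7 at 20.6 CPM (7.26 to 7.77), Slc43a2 at 29.9 CPM (16.4 to 18.2), Slc7a10 at 3.04 CPM (0.498 to 0.709) and Slc7a11 at 4.56 CPM (0.356 to 0.768). In RA+Dipy replicate 1, Slc7a11 was at 4.69 CPM (0.423 to 0.775 in the other RA+Dipy libraries), Slc38a9 at 13.4 CPM (6.76 to 7.76) and Slc38a10 at 22.0 CPM (52.4 to 56.3). In RA+Dipy replicate 4, Slc1a3 was at 14.5 CPM (1.99 to 3.502) and Slc36a2 at 14.3 CPM (1.52 to 2.77). Slc1a4 was at 2.46 CPM in RA replicate 3 (0.847 to 1.01), and Slc7a2 at 34.9 CPM in RA+Dipy replicate 2 (55.5 to 57.5).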

How the results depend on the processing

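The count of 0 transporter genes past the adjusted threshold held in all 19 alternatives, and the median log2 fold change ran from −0.06 (without RA replicate 1) to 0.15. Over all genes, limma-voom with library weights called 133 genes (0 of them transporter genes, whose smallest adjusted p was 0.0665), and the other alternatives called 0. Genes with an unadjusted p under 0.05 numbered 488, against 740 with DESeq2, 3633 with library weights, 178 to 1187 without single libraries and 1461 without RA replicate 4 and RA+Dipy replicate 1. Transporter genes among them numbered 5 without those 2 libraries (15.2%, against 11.4% of all genes in that fit). They numbered 2 without RA replicate 4 (Slc1a3, Slc7a10; 6.06% against 4.02%) and 1 without RA+Dipy replicate 1 (Slc36a2, 2.94% against 5.34%). With no filter there was 1 (Slc1a2, 1.69% against 3.99%). There were 2 (5.56% against 4.71%) without RA replicate 4 and RA+Dipy replicates 1 and 4, a fit added after seeing the data. With the replicate block the transporter median was 0.09, and 165 genes had an unadjusted p under 0.05. Same-numbered libraries correlated at −0.20, 0.11, 0.15 and −0.27. These values cannot decide whether the numbers pair the mice, because a pairing need not show in expression.

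Of the 33 genes 22 changed sign in at least 1 alternative; for each gene the cause was not tested. Without single libraries the log2 fold changes ran from −0.077 to 1.645 (Slc1a3), −0.39 to 0.29 (Slc1a4), −0.027 to 0.827 (Slc1a5), −0.056 to 1.45 (Slc36a2), −0.38 to 0.19 (Slc38a1), −0.084 to 0.48 (Slc38a2), −0.41 to 0.031 (Slc38a3), −0.15 to 0.49 (Slc38a4), −0.33 to 0.22 (Slc38a9), −0.15 to 0.024 (Slc43a1), −0.002 to 0.36 (Slc43a3), −0.46 to 0.12 (Slc6a13), −0.62 to 0.21 (Slc6a6), −0.25 to 1.77 (Slc7a10), −1.38 to 1.38 (Slc7a11), −0.25 to 0.12 (Slc7a5) and −0.24 to 0.087 (Slc7a6). With upper-quartile factors Slc38a1 was 0.023. With library weights the changed values were −0.013 (Slc38a4), −0.026 (Slc38a2), −0.125 (Slc6a8), −0.32 (Slc7a11), 0.002 (Slc38a6), 0.037 (Slc43a2), 0.23 (Slc7a5), 0.295 (Slc6a13), 0.37 (Slc38a1) and 0.38 (Slc6a6). Without RA replicate 4 and RA+Dipy replicate 1 they were −0.086 (Slc7a11), −0.13 (Slc6a8), −0.13 (Slc38a4), −0.22 (Slc38a2), 0.045 (Slc43a2), 0.073 (Slc7a5), 0.12 (Slc6a13), 0.32 (Slc6a6) and 0.36 (Slc38a1). Without RA+Dipy replicate 4 as well they were −0.034 (Slc7a2), −0.12 (Slc6a8), −0.12 (Slc38a4), −0.23 (Slc38a2), 0.025 (Slc38a7), 0.12 (Slc38a3), 0.12 (Slc6a6), 0.17 (Slc43a2), 0.18 (Slc7a5), 0.40 (Slc6a13) and 0.68 (Slc38a1). Depth limits the 28 genes below the filter, which the main fit did not compare. The fit with no filter took in 59 of the 61 members. Slc1a2, with its unadjusted p under 0.05 by edgeR in that fit, had 23 reads over all libraries (0 to 6 per library).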
